A study of Caenorhabditis elegans with 2 samples.

Results

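The genes described here encode the AAA ATPase CDC-48 and its main cofactors in *Caenorhabditis elegans*. They are the paralogs *cdc-48.1* and *cdc-48.2*, *ufd-1*, *npl-4.1* and *npl-4.2*, *ufd-2* and *ufd-3*, and make up 7 of 19973 annotated protein-coding genes. They were selected by name, with values of these peaks already known, among them the strong promoter peak of *cdc-48.1*. The signals that follow at *cdc-48.1* and its paralog are therefore a description, and no test was made on them. Of the 7 genes, 6 lie on chromosome II and *ufd-1* lies on chromosome IV.

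The data are chromatin immunoprecipitation and sequencing (ChIP-seq) of LSY-12, a MYST-family histone acetyltransferase. There was 1 group, whole L3 larvae of mixed sex from strain OP568, genotype unc-119(tm4063) III; wgIs568, collected 43 h after synchronization at the starved L1 stage. The strain carries an integrated transgene for LSY-12 with a C-terminal GFP-FLAG tag, and the precipitation used an antibody against GFP. Whether the untagged gene was still present is not stated, and larvae without the tag were not analysed here. The 2 biological replicates are numbered 3 and 4. Signal from whole larvae is a sum over tissues, so a strong signal in few cells and a weak one in many cannot be told apart. Read depth is not given in the peak lists.

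CDC-48, called p97 or VCP in mammals, is a hexameric ATPase that uses ATP to pull ubiquitylated proteins out of membranes, chromatin and complexes, mostly on their way to the proteasome. The UFD-1 and NPL-4 proteins form a dimer that binds ubiquitin chains and brings substrates to the ATPase. UFD-2 is a ubiquitin chain elongation factor, also called an E4 enzyme, and UFD-3 is the homolog of yeast Ufd3 and mammalian PLAA, which bind ubiquitin and CDC-48. In the worm, the CDC-48 paralogs are known to act redundantly, in the degradation of misfolded proteins from the endoplasmic reticulum and in the removal of replication factors from chromatin.

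The stretches of sequence under the peaks at *cdc-48.1*, *ufd-2* and *ufd-3*, and the matching stretch at *cdc-48.2*, are shown because the ATPase paralogs and these cofactors differ in signal there. All were read from the ce11 (WBcel235) RefSeq genome on the strand of the gene, end before the annotated start and overlap no annotated exon. The *cdc-48.1* stretch is the whole peak (chrII:10563437-10563722, minus strand), from −315 to −30 bp of the start. The *cdc-48.2* stretch covers the same distances from its own start (chrII:8138181-8138466, plus strand). Those of *ufd-2* (chrII:8062363-8062513) and *ufd-3* (chrII:9940585-9940735), both on the plus strand, reach 75 bases to either side of the summit. Capitals mark matches on either strand to a searched motif. The motifs were 6 in number. GAANNTTC is a pair of heat shock element units. The letters TGACGTG are the core bound by XBP-1, a transcription factor of the unfolded protein response. The letters CACGTG are those of an E-box, and the letters TATAAA those of the TATA box. The letters GAGAGA are a repeat, and the letters CCGCCC are those of the GC box.
cdc-48.1: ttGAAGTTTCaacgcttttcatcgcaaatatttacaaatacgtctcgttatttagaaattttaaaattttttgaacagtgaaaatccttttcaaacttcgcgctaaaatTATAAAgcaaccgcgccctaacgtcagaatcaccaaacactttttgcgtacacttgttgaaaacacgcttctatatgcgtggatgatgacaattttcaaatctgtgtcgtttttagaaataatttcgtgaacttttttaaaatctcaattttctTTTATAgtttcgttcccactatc
cdc-48.2: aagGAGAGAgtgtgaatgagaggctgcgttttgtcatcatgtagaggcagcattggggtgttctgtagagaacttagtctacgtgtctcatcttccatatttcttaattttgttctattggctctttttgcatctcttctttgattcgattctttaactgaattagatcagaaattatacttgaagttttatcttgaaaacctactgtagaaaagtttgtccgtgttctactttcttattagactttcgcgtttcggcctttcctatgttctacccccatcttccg
ufd-2: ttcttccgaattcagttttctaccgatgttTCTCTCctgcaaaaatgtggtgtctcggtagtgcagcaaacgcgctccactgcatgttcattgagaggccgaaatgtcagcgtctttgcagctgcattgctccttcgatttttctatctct
ufd-3: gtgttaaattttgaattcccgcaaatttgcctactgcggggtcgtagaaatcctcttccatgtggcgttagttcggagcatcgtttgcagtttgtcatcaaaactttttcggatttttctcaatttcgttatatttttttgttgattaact

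The *cdc-48.1* peak held GAANNTTC at −313 to −306 bp, and TATAAA at −206 to −201 bp and, on the other strand, at −52 to −47 bp. The *cdc-48.2* stretch held GAGAGA at −312 to −307 bp and none of the other motifs. That of *ufd-2* held GAGAGA, on the other strand, at −348 to −343 bp, and that of *ufd-3* held none of the 6. Within 150 bp of the summit, GAANNTTC occurred in 14.5%, TATAAA in 22.1% and GAGAGA in 43.9% of all thresholded peaks. These windows are longer than the stretches shown, most of all those of *ufd-2* and *ufd-3*, so the shares are not rates for stretches of that length. The *cdc-48.1* peak thus held no GAGAGA, the most frequent of the 6 motifs among the peaks. The GC content of these stretches was 31.8% at *cdc-48.1*, 38.1% at *cdc-48.2*, 46.4% at *ufd-2* and 37.1% at *ufd-3*.

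LSY-12 had a thresholded peak summit within 5000 bp of the start of 3 of the 7 genes, *cdc-48.1*, *ufd-2* and *ufd-3*, and each of the 3 also had one within 500 bp. Over all protein-coding genes the shares were 18.2% within 5000 bp and 5.26% within 500 bp. Nothing is read from this difference, because these peaks were known when the genes were chosen. The start of a gene is its most 5' annotated transcript start, and the thresholded list is the set of peaks that the authors derived from both replicates. Of the 5 thresholded peaks near the 3 genes, 1 was among the strongest of the series and 4 lay between ranks 901 and 1624. The relative signal used below is a region's signal divided by the median signal of its list of 30000 candidate regions, which include background. In the pooled list, thresholded peaks had a relative signal of at least 2.13 and a median of 3.06.

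**Figure D1:**
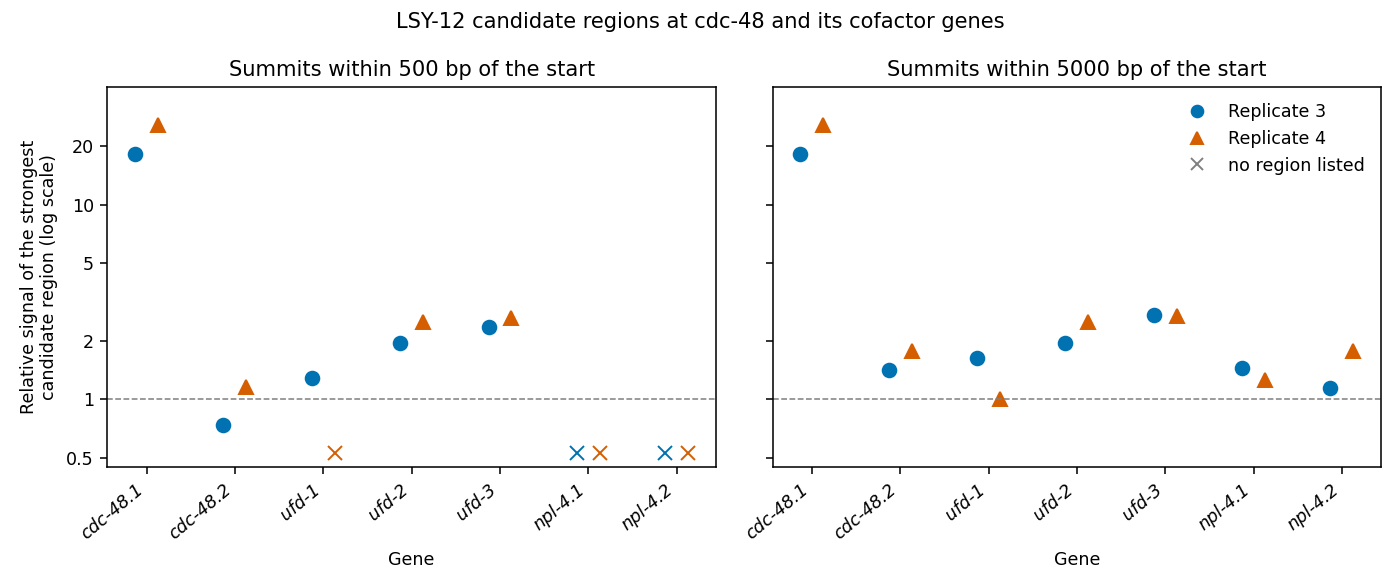
Relative signal (log scale) of the strongest candidate region within 500 bp (left) and 5000 bp (right) of each start, with circles for replicate 3 and triangles for replicate 4. Crosses at the bottom mark genes with no region listed, and the dashed line is the list median of 1. In both replicates *cdc-48.1* is the highest of the 7, at 18.2 and 25.7, and the *npl-4* genes have no region within 500 bp.

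The promoter of *cdc-48.1* (WBGene00007352, chrII:10560036-10563407, minus strand) carried the peak of rank 5 in the thresholded list. Its summit lay at −167 bp, between genes, and no other protein-coding start lay within 500 bp of it. The relative signal was 18.2 in replicate 3 and 25.7 in replicate 4, a mean of 22.0 ± 5.33 (SD, n = 2), and 23.7 in the pooled list. The peak ranked 7 of 30000 regions in replicate 3 and 3 of 30000 in replicate 4, so both replicates placed it among their strongest, although replicate 4 was higher by 0.50 on the log2 scale. Of all thresholded peaks, 13.9% were higher still in replicate 4 over replicate 3, and the log2 ratio ranged from −0.71 to 0.77 between the percentiles 5 and 95. Of the 15 strongest peaks, 14 were higher in replicate 4, with a median log2 difference of 0.20 and a highest of 0.50, the value of *cdc-48.1*. Summits in the replicates, at −161 and −168 bp, lay 7 bp apart.

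The *cdc-48.1* peak was 286 bp wide, against a median of 410 bp for all thresholded peaks. The other thresholded peaks near *cdc-48.1*, *ufd-2* and *ufd-3* were each exactly 410 bp wide. How the authors' widths were set is not stated, so they are not read as the extent of binding. Only 8.69% of thresholded peaks were narrower, but the 15 strongest had a median width of 286 bp as well. The q-value in the authors' thresholded list was 0.000674, the lowest value there, which 742 peaks share. It therefore does not rank this peak among them. Among all protein-coding genes, 6 (0.0300%) had a stronger pooled candidate within 500 bp. The gene holds a pair of snoRNA genes on its own strand, *C06A1.9* and *C06A1.8*. The *cdc-48.1* summit lay 510 bp upstream of the first and 2640 bp upstream of the second, so neither lay within 500 bp of it. Inside the gene body the candidate regions were weak. In replicate 3 they had relative signals of 1.03 at 924 bp and 0.915 at 1198 bp, and the pooled list had 0.864 at 948 bp and 0.989 at 3341 bp. Replicate 4 had no summit inside *cdc-48.1*, but had one of 1.48 at 3378 bp, just past the end of the gene.

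A second thresholded peak lay near *cdc-48.1*, at 4261 bp from its start and 890 bp beyond its 3' end (chrII:10558941-10559350). It ranked 901, with relative signals of 2.74 in replicate 3 and 2.75 in replicate 4. The nearest protein-coding start was that of *mnk-1*, at a summit position of −4102 bp. The nearest start of any kind was that of the non-coding RNA gene *R166.11*, at −1502 bp, so no gene start lay within 500 bp of this summit. The next summit outside the 5000 bp window, at 6165 bp, ranked 1471, with relative signals of 2.06 and 2.56 in replicates 3 and 4.

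**Figure D2:**
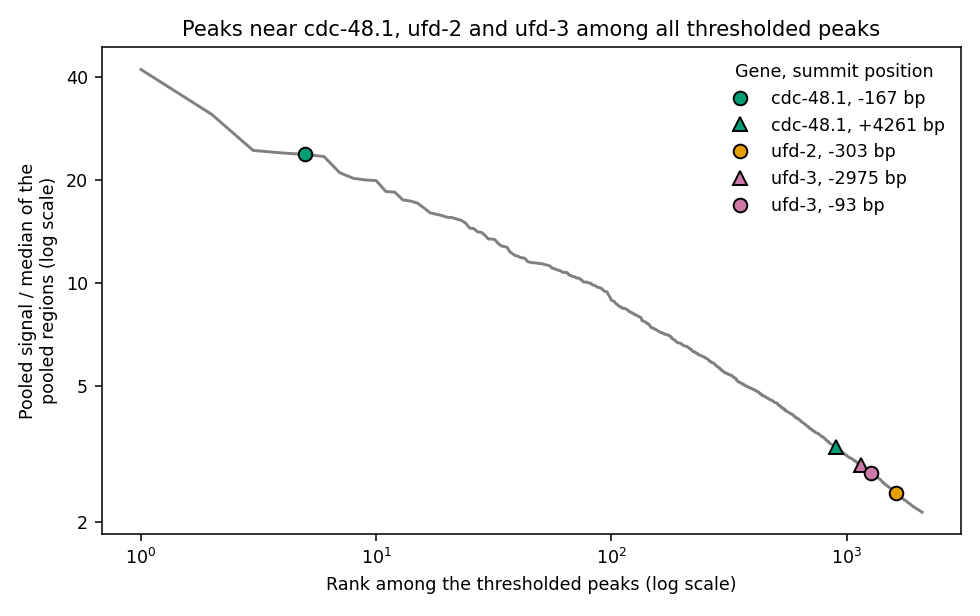
Pooled signal over the pooled median (log scale) against rank (log scale) for the thresholded peaks (line), with the 5 peaks within 5000 bp of *cdc-48.1*, *ufd-2* and *ufd-3*. Circles mark summits within 500 bp of the start and triangles those farther away. The promoter peak of *cdc-48.1* is at rank 5 and the other 4 lie between ranks 901 and 1624.

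The paralog *cdc-48.2* (WBGene00008053, chrII:8138496-8141230, plus strand) had no thresholded peak within 5000 bp. Its strongest candidate within 500 bp had a relative signal of 0.739 in replicate 3 and 1.16 in replicate 4, close to the list median of 1. The candidate of replicate 3 ranked 29128 of 30000, near the bottom of the list, and lay at −399 bp, whereas that of replicate 4 lay at −288 bp. Of all protein-coding genes, 31.8% had a pooled candidate within 500 bp, and 29.1% had a stronger one than *cdc-48.2*, whose pooled value was 0.781. Within 5000 bp its best candidates reached 1.42 in replicate 3, at −3580 bp, and 1.76 in replicate 4, at −2346 bp. These are different regions, and the nearest protein-coding start to both was that of *ctns-1*. The nearest thresholded summit lay outside the window, at −6861 bp, and ranked 1317.

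The difference between the ATPase paralogs is given as a description, since they were chosen with it known. With the strongest candidate within 5000 bp of each start, *cdc-48.1* exceeded *cdc-48.2* by 12.8-fold in replicate 3 and 14.6-fold in replicate 4, a mean log2 difference of 3.78 ± 0.131 (SD, n = 2). The *cdc-48.2* values are the highest of several weak regions and come from different regions in the replicates, so this SD is not the spread of 1 region. Those regions had q-values of 0.377 in replicate 3 and 0.130 in replicate 4, and neither was nearest to the *cdc-48.2* start. The folds thus set a promoter peak against weak regions outside the thresholded list, and do not compare signal at the 2 promoters. Within 500 bp the difference is listed only among the checks on processing. It is not read as a fold, because the *cdc-48.2* regions had q-values of 0.807 in replicate 3 and 0.532 in replicate 4. In replicate 3 its relative signal of 0.739 lay close to the lowest of that list, 0.727. The proteins predicted from the longest coding sequences, of 809 residues for CDC-48.1 and 810 for CDC-48.2, were identical in 88.1% of 817 aligned columns. Their coding sequences were identical in 76.3% of aligned bases. No 32-mer within 500 bp of either start occurred a second time on either strand of the nuclear genome. Within the genes, 5 of 3341 32-mers at *cdc-48.1* and 5 of 2704 at *cdc-48.2* occurred more than once. Whether the paralogs, which lie on opposite strands, share these was not tested. The 2 starts lie 2424911 bp apart on chromosome II.

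**Figure D3:**
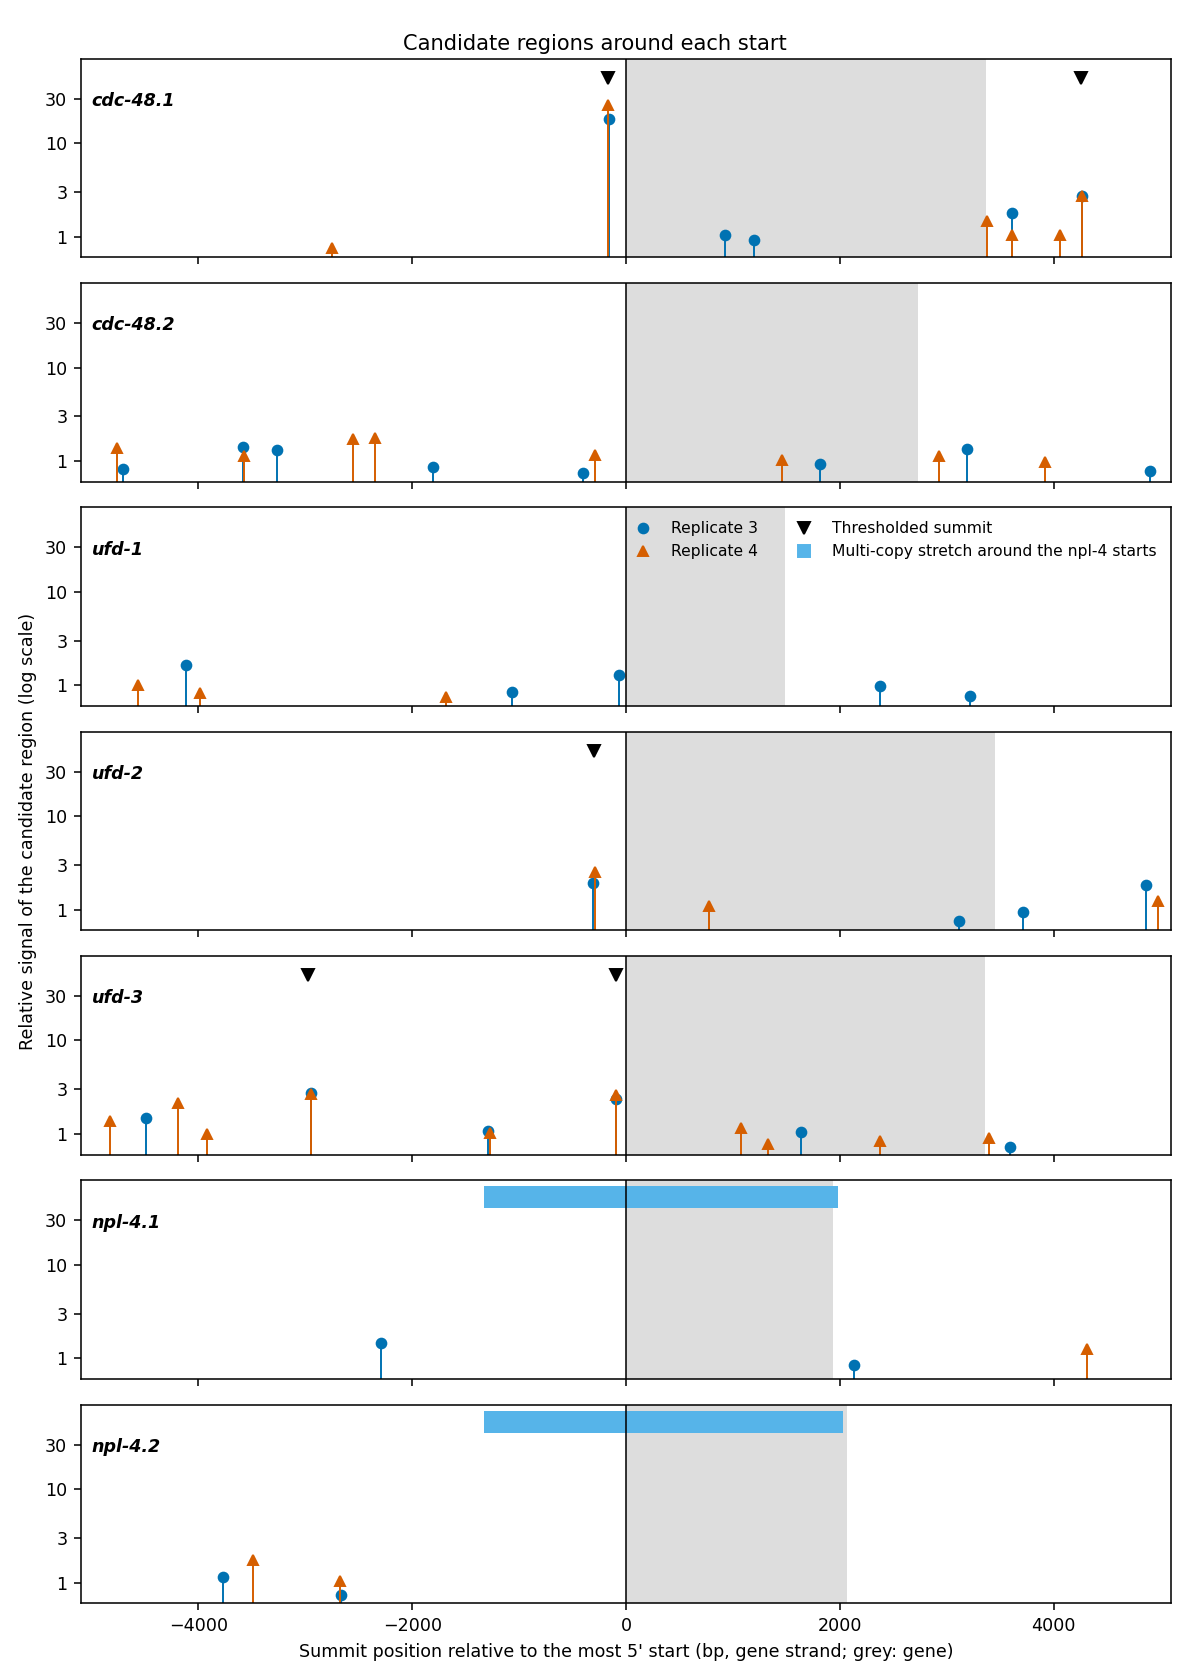
Summits of candidate regions within 5000 bp of each start, placed by distance on the gene's strand (bp), with relative signal on a log scale. Circles are replicate 3, triangles replicate 4, black arrowheads thresholded summits, grey the gene, and blue bars the multi-copy stretch around each *npl-4* start. The *cdc-48.1* signal is concentrated at −167 bp, that of *cdc-48.2* is scattered at 1.76 or below, and the blue bars hold no candidate summit.

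The genes for the ubiquitin-binding dimer had no thresholded peak within 5000 bp. At *ufd-1* (WBGene00006733, chrIV:12329408-12330890, minus strand) a candidate was listed within 500 bp in replicate 3, at −62 bp with a relative signal of 1.29 (rank 7278), and none in replicate 4. The pooled list had 1.23 there, at −20 bp, with a q-value of 0.559. The best candidates within 5000 bp, at −4117 bp in replicate 3 and −4564 bp in replicate 4, had 1.63 and 1.000, and lay nearer the start of *F19B6.1*. The nearest thresholded summit lay at −41206 bp. *ufd-1* was thus without a region that both replicates placed near its start.

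No candidate region of any list had a summit within 500 bp of *npl-4.1* (WBGene00019120, chrII:5631351-5633284) or *npl-4.2* (WBGene00019121, chrII:5622889-5624959), both on the plus strand. These genes are near-identical copies whose starts lie 8462 bp apart. Their predicted proteins, of 529 residues each, were identical at 524 positions (99.1%), and their coding sequences at 99.5% of bases. Of the 32-mers within 500 bp of each start, 96.7% occurred more than once in the genome, against none at the other 5 genes. The stretch with such 32-mers ran from −1325 to 1981 bp at *npl-4.1* (3307 bp) and from −1325 to 2033 bp at *npl-4.2* (3359 bp), and held no candidate summit in any of the 3 lists. The candidates beside it, in largely single-copy sequence, had relative signals of 0.842 to 1.44 in replicate 3 and 1.25 in replicate 4 at *npl-4.1*. At *npl-4.2* they had 0.735 to 1.14 in replicate 3 and 1.05 to 1.76 in replicate 4.

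The absence of regions at the *npl-4* starts was shared by genes with the same property. Of 274 protein-coding genes with over 90% of these 32-mers in more than 1 copy, none had a candidate within 500 bp in either replicate and 1 (0.365%) had one in the pooled list. The 274 include *npl-4.1* and *npl-4.2* themselves. Among 17599 genes with at most 10% of them in more than 1 copy, the share was 33.2% in replicate 3, 34.0% in replicate 4 and 33.8% in the pooled list. The authors also deposited signal tracks of unique reads, but whether reads that map to several places entered the peak lists is not stated. Its part in the empty windows was not tested. An empty window at *npl-4.1* or *npl-4.2* therefore cannot be read as low LSY-12 signal.

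*ufd-2* and *ufd-3* had modest promoter peaks. At *ufd-2* (WBGene00006734, chrII:8062741-8066193, plus strand) the summit lay at −303 bp (chrII:8062233-8062642) and ranked 1624, with relative signals of 1.95 in replicate 3 and 2.50 in replicate 4 (2.22 ± 0.386, SD, n = 2). The replicate 3 region ranked 2323, outside the strongest regions of its list when as many are taken as there are thresholded peaks, and that of replicate 4 ranked 1431. Its q-value was 0.0299 in the thresholded list, 0.0932 in replicate 3 and 0.0157 in replicate 4, so the call at *ufd-2* rested more on replicate 4. No other thresholded summit lay within 5000 bp, and the first outside, at 12781 bp, ranked 303.

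At *ufd-3* (WBGene00007333, chrII:9940753-9944107, plus strand) the promoter summit lay at −93 bp (chrII:9940455-9940864) and ranked 1275. Its relative signals were 2.34 in replicate 3 and 2.61 in replicate 4 (2.47 ± 0.187, SD, n = 2), and the ranks of 1571 and 1321 placed it among that many strongest regions in both. A second peak, at −2975 bp from the *ufd-3* start, ranked 1156, with 2.71 in replicate 3 and 2.69 in replicate 4 (2.70 ± 0.0107). Its nearest start was that of *C05C10.3*, from which it lay at −885 bp, so the strongest peak within 5000 bp of *ufd-3* was nearer to another gene. In both replicates the promoter peaks of *ufd-3* and *ufd-2* had lower relative signal than that of *cdc-48.1*. The promoter peak of *ufd-3* was above that of *ufd-2* in both, but their means differ by less than the SD at *ufd-2*.

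**Figure D4:**
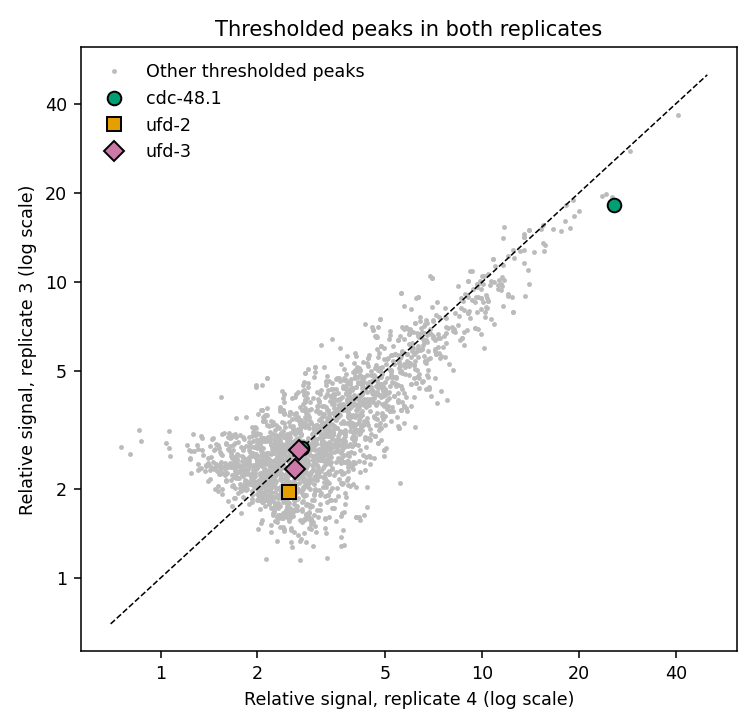
Relative signal of thresholded peaks in replicate 4 (x axis) and replicate 3 (y axis), both on log scales, with the peaks within 5000 bp of *cdc-48.1* (circles), *ufd-2* (square) and *ufd-3* (diamonds). The dashed line marks equal values. The *cdc-48.1* promoter peak, at 25.7 and 18.2, lies at the upper end, below the line, and the other peaks of these genes lie between 1.95 and 2.75.

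The positions of the 3 promoter summits were set beside those of all thresholded summits near protein-coding starts. Over 1070 pairs of a gene and a summit within 500 bp, the summit lay at a median of −184 bp, and at −436 to 217 bp between the percentiles 5 and 95. The summits of *ufd-3* (−93 bp), *cdc-48.1* (−167 bp) and *ufd-2* (−303 bp) fell within that range. These 3 are among the pairs and were taken with the same limit of 500 bp, so this was largely fixed in advance. The GC content of the promoter, from 250 bp before to 50 bp after the start, was 34.0% at *cdc-48.1*, 36.0% at *cdc-48.2*, 38.0% at *ufd-2* and 37.0% at *ufd-3*. It was 33.0% at *npl-4.1*, 32.7% at *npl-4.2* and lowest at *ufd-1*. The median was 34.3% over all 19973 promoters and 37.0% over the 1050 with a thresholded summit within 500 bp. The *cdc-48.1* promoter was thus close to the median of all promoters in GC content.

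Motifs in these 300 bp promoters were few. TATAAA occurred at *cdc-48.1* only among the 7, against 37.9% of all promoters. CACGTG occurred at *ufd-1* and *ufd-2* (5.82% of all promoters), GAGAGA at *cdc-48.2* (21.8%), GAANNTTC and TGACGTG at *ufd-3* (18.5% and 2.93%), and CCGCCC at none of the 7 (7.83%). Both strands were searched and matches were allowed to overlap. No motif was found in more than 2 of the 7 promoters.

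In signal over the 2 replicates, the genes closest to *cdc-48.1* were *rpl-15* and *K11H12.8*, which share 1 peak with relative signals of 19.4 in replicate 3 and 25.3 in replicate 4. Their distance to *cdc-48.1* was 0.10, taken as the Euclidean distance of log2 relative signals. Next were *tasp-1* (19.9 and 24.2, distance 0.15), *rpl-35* (19.5 and 23.5, distance 0.16) and *vig-1* (17.3 and 19.9, distance 0.37). *rpl-15* and *rpl-35* encode proteins of the large ribosomal subunit. This likeness is one of strength over 2 samples and says nothing of when or where the genes are bound.

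A list of 23 further genes holds CDC-48 partners, other AAA ATPases and genes of degradation from the endoplasmic reticulum. Of these, 2 (8.70%) had a thresholded summit within 500 bp, against 5.26% of all protein-coding genes. These were *spas-1*, the homolog of the AAA ATPase spastin, which severs microtubules, and *aip-1*, which encodes an arsenite-inducible zinc finger protein. Without *spas-1*, 1 gene of the list had such a summit. The *spas-1* summit lay at −366 bp with relative signals of 4.19 in replicate 3 and 3.13 in replicate 4. That of *aip-1*, at −91 bp, had 2.27 and 2.33 and also lay within 500 bp of *ddx-17*. Neither *cdc-48.3*, which encodes a further AAA ATPase, nor the UBX-domain cofactor genes *ubxn-1* to *ubxn-6* had a summit within 500 bp. Within 5000 bp, 6 of the 23 had a thresholded summit (26.1%, against 18.2% of all), adding *ubxn-3*, *ubql-1*, *sel-11* and *cup-2*. The *sel-11* summit was nearer to *F55A11.1* (−151 bp), and the strongest of *ubxn-3* was nearer to *F48A11.4* (−196 bp). A weaker *ubxn-3* summit, at −721 bp, was nearest to *ubxn-3* itself, with 2.81 in replicate 3 and 2.01 in replicate 4. At *ubql-1*, a ubiquilin gene, the summit at −542 bp had 9.68 in replicate 3 and 11.5 in replicate 4. It lay in an exon of the non-coding RNA genes *VF15C11L.1* and *VF15C11L.2*, at 23 bp from the start of *VF15C11L.1*, and at −633 bp from *pdi-3*. For *cup-2*, a Derlin gene, it lay at −645 bp and was nearer to *tag-353* (−242 bp). Of the 23 genes, 11 (47.8%) had a pooled candidate within 500 bp, with a median relative signal of 1.29, against 31.8% of all protein-coding genes, with a median of 1.10.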

How the data were processed

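LSY-12 ChIP-seq was measured in 2 biological replicates of 1 group, grouped by the labels. The text files deposited beside the lists name an IDR (irreproducible discovery rate) input of peaks and background, made by the authors from each replicate or from both pooled with a control, and an optimal thresholded list made from these 3. No source used here names the aligner or the peak caller. The authors' signal values have no stated scale and were compared within lists, after division by the list median. The −log10 q-values that the authors deposited described and filtered peaks, and their summit offsets, mostly at the middle of a region, placed summits. Lists on ce10 were not used.

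All positions are on ce11 and count from 1. Genes came from Ensembl release 115 and sequence from the RefSeq genome of the same build. Each thresholded peak took, per replicate, the overlapping region (at least 1 bp) of highest signal. A 32-mer was multi-copy when it occurred more than once on either strand of the nuclear chromosomes. Proteins were translated from the longest annotated coding sequence and aligned globally with Biopython 1.88. Assignments used Python 3.11.15, pandas 2.3.3 and numpy 2.4.6, and were tested on simulated data. The genes described, the list of 23 further genes and the choices above were made with earlier results of these data known. The genes named were the 7 genes, listed genes with a thresholded summit within 500 bp (those within 5000 bp were added after their values were seen), genes nearest to a peak within 5000 bp, and the 5 closest to *cdc-48.1* in log2 relative signal. The comparison of multi-copy windows was added after the data were seen. No test was made, and 2 replicates give only a rough SD.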

Additional observations from a re-analysis of the deposited data

How the results depend on the processing

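The log2 difference of *cdc-48.1* and *cdc-48.2* was 3.68 to 3.87 with either replicate left out, 3.82 in the pooled list, and 4.55 within 500 bp, where the *cdc-48.2* region of replicate 3 lay near the bottom of its list. For counts with either replicate left out, the strongest regions of the other replicate were taken, as many as there are thresholded peaks. The count of genes with such a summit was 2 to 3 of 7, at 5000 bp and at 500 bp, and *ufd-2* was lost without replicate 4. With the thresholded peaks of above-median signal the count was 1, *cdc-48.1*, in both windows. With a q-value of 0.01 or below it was 1 within 500 bp, and 2 within 5000 bp. Other windows, interval overlap, every transcript start and the nearest start each left it at 3. Of the 23 further genes, 1 was counted with above-median peaks and 1 with a q-value of 0.01 or below, 4 by interval overlap, 5 within 1000 bp, 6 within 5000 bp, and 2 to 2 with either replicate left out.

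Dividing by the median of the strongest regions, as many as there are thresholded peaks, rescaled all relative signals, to 7.63 at *cdc-48.1*, 0.553 at *cdc-48.2*, 0.461 at *ufd-1*, 0.774 at *ufd-2*, 0.942 at *ufd-3*, 0.470 at *npl-4.1* and 0.503 at *npl-4.2*, and left the paralog difference at 3.78. With either replicate left out, the relative signal of the strongest region within 5000 bp was 18.2 to 25.7 at *cdc-48.1*, 1.42 to 1.76 at *cdc-48.2*, 1.000 to 1.63 at *ufd-1*, 1.95 to 2.50 at *ufd-2*, 2.69 to 2.71 at *ufd-3*, 1.25 to 1.44 at *npl-4.1* and 1.14 to 1.76 at *npl-4.2*. Within 500 bp it was 0.951 at *cdc-48.2* and 2.47 at *ufd-3*, and no region was listed at the *npl-4* genes. The pooled list gave 2.92 at *ufd-3* and 1.16 at *npl-4.1*. No paired analysis was possible because both replicates belong to 1 group. Read depth is unknown, so the counting error of weak regions could not be given.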
